A study of Caenorhabditis elegans with 24 samples.

Results

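Transfer RNA genes were examined for their association with BAF-1 and BAF-1(G12T). The members were all 612 genes with a WBGene identifier that the WBcel235 annotation gives the biotype tRNA, out of 46374 genes in the deposited gene tables. Mitochondrial tRNA genes were not analysed here. Transfer RNAs carry amino acids to the ribosome, and their genes are short, scattered through the genome and present in many copies. RNA polymerase III transcribes them from promoters that lie within the gene: an A box and a B box are bound by the factor TFIIIC, which brings in TFIIIB and the polymerase. BAF-1 is a small protein of the nuclear envelope that binds DNA without sequence preference, lamin and LEM-domain proteins, and the G12T change is the worm counterpart of the substitution that causes Nestor-Guillermo progeria syndrome.

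Association was measured by tissue-specific DamID, in which a bacterial adenine methyltransferase (Dam) fused to a protein marks GATC sequences close to where that protein sits, and only marked fragments are amplified and sequenced. The 24 libraries fell into 8 groups of 3 biological replicates: Dam::BAF-1(G12T) and Dam::BAF-1, each with a GFP::Dam control, in the hypodermis (the skin epithelium) and in the intestine. The hypodermis was reached with FLP recombinase under the dpy-7 promoter and the intestine with FLP under the nhx-2 promoter, and in both tissues the fusion came from a single-copy insertion on chromosome II with uninduced activity of the hsp16.41 heat-shock promoter. The strains with Dam::BAF-1(G12T), and the GFP::Dam strains set against them, carried G12T in the endogenous baf-1, and those with Dam::BAF-1 and the matching controls were wild type at baf-1, so protein and genotype cannot be told apart. Each library was made with 22 PCR cycles from 400 ng of DNA of 4000 L4 larvae grown for 48 h at 20 °C. Every value below is a log2 ratio of Dam fusion over GFP::Dam, 1 per replicate and fusion group, set to 0 at the median of all genes tested in that replicate. A value above 0 means that the fusion marked a gene more, relative to GFP::Dam, than it marked the median gene, and a value below 0 the opposite. The ratios themselves carry no read depth, though the paper lists reads per library, and the precision of the ratios is given as the spread between replicates.

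The tRNA genes on which the results turn most are shown first. All coordinates are WBcel235 and all sequences are RefSeq, written 5′ to 3′ on the strand of the gene, with the letters of the B box in capitals. W05B2.t1 (tRNA-Arg, chrIII:10961850-10961917, minus strand) had the highest ratio with Dam::BAF-1(G12T) in hypodermis. Y75D11A.t2 (tRNA-Arg, chrX:1764254-1764327, minus strand) was the X-linked gene called above 0 in all 4 fusion groups. Y46G5A.t1 (tRNA-Arg, chrII:12728756-12728826, minus strand) had the smallest p among tRNA genes with a lower ratio for the mutant protein than for BAF-1 in hypodermis. ZK899.t1 (tRNA-Pro, chrX:9467729-9467800, minus strand) had the lowest ratio with Dam::BAF-1(G12T) in hypodermis. ZK970.t3 (tRNA-Pro, chrII:10304771-10304842, minus strand) was among the lowest with Dam::BAF-1 in intestine and is almost the same sequence as ZK899.t1. F22F1.t2 (tRNA-Ser, chrX:8154445-8154526, plus strand) had the largest difference between tissues.
W05B2.t1: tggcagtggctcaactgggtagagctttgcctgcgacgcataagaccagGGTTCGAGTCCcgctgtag
Y75D11A.t2: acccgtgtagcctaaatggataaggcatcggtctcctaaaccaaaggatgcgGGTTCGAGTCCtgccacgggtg
Y46G5A.t1: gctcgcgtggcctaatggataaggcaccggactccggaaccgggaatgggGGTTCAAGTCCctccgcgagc
ZK899.t1: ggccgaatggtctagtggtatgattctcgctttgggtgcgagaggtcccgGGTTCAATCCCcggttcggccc
ZK970.t3: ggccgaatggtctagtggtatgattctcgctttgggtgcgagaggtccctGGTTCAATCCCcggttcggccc
F22F1.t2: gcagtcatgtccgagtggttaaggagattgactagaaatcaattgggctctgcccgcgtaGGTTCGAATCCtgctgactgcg

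The B box was searched on the gene's own strand as GGTTCGA, any 2 bases and CC, found in 394 tRNA genes (64.4%), and as GGTTCAA, any 2 bases and CC, found in 109 (17.8%), so that 503 genes (82.2%) held one of these spellings. Among 1392672 stretches of 72 bp that tile the genome, 2023 (0.145%) held either spelling on either strand. A match describes letters and not a bound site. The 6 printed genes thus include both spellings, and genes far above and far below 0 carry each of them. The 612 genes had only 200 distinct sequences, and 469 genes belonged to 57 sets of identical copies, the largest being 29 copies of a tRNA-Gly gene. The sources used here do not say how reads from identical copies were assigned. The genes themselves have a median length of 72 bp (64 to 122 bp), but the authors counted reads over each gene with 500 bp added at both ends, so most of what was counted lies in flanking DNA.

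The 612 windows had a median width of 1072 bp and a median of 2 GATC sites, against 3 sites in other non-coding RNA (ncRNA) genes and 9 in protein-coding genes, whose windows had median widths of 1141 bp and 3031 bp. Per kilobase, tRNA windows had 2.38 sites and protein-coding windows 2.85. The tRNA gene itself held a GATC site in 109 cases. In 65 windows there was no GATC site, and all of these took, in each of the 12 ratio columns, the value that a window without reads takes. None of the 65 was tested. Each table was tested where the authors had given an adjusted p-value, which left 457 tRNA genes for BAF-1(G12T) and 409 for BAF-1 in hypodermis, and 443 for BAF-1(G12T) and 447 for BAF-1 in intestine, with 378 tested in all 4 tables. A total of 125 tRNA genes, of which 60 had a GATC site, were tested in none. Many windows overlapped: the 612 genes formed 476 separate regions, of which 376 held 1 tRNA gene and the largest held 6, so neighbouring tRNA genes often share reads.

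In each fusion group, more tRNA genes were called below 0 than above it. With BAF-1(G12T) in hypodermis, 24 of 457 tested tRNA genes (5.25%) were above 0 and 246 (53.8%) below 0, by limma with Benjamini-Hochberg adjustment over all genes at 0.05, whereas 24.6% of all 33800 tested genes were above and 26.3% below. With BAF-1 in hypodermis, 20 of 409 (4.89%) were above and 177 (43.3%) below, beside 20.5% and 24% of all 30374 genes. With BAF-1(G12T) in intestine, 22 of 443 (4.97%) were above and 122 (27.5%) below, beside 21.9% and 19.2% of all 33367 genes. With BAF-1 in intestine, 16 of 447 (3.58%) were above and 141 (31.5%) below, beside 25.9% and 22.4% of all 36850 genes. The share of tRNA genes above 0 was thus smaller than that of all genes in each of the 4 groups. These calls came from 24 and 184 separate regions for BAF-1(G12T) and 19 and 132 for BAF-1 in hypodermis, and from 20 and 90 for BAF-1(G12T) and 16 and 105 for BAF-1 in intestine, above and below 0 in each case. Without replicate 2 of Dam::BAF-1 in intestine, limma called no tRNA gene in that group in either direction, with 9 above and 93 below 0 at an unadjusted p under 0.05, and without its replicate 3 the counts were 3 and 19, so the intestinal BAF-1 calls rest on these libraries, while 249 were below 0 without its replicate 1. Counts also moved by over 1.5 times without replicate 1 or 2 of BAF-1(G12T) in hypodermis (15 above 0 in both cases), without replicate 2 of BAF-1 in hypodermis (114 below 0), and without replicate 1 (14 above and 77 below 0) or replicate 3 (14 and 49) of BAF-1(G12T) in intestine.

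The median tRNA gene lay at −1.42 for BAF-1(G12T) and −1.29 for BAF-1 in hypodermis, and at −1.04 for BAF-1(G12T) and −1.22 for BAF-1 in intestine. The middle 50% of tRNA genes reached from −2.27 to −0.24, −2.39 to −0.19, −1.94 to −0.06 and −1.98 to −0.22 in the same order of groups. Protein-coding genes had medians of −0.04, 0.06, −0.42 and −0.63 and ncRNA genes of −1.11, −1.17, −0.36 and −0.59. In hypodermis tRNA genes therefore sat close to ncRNA genes, while in intestine they were below both classes. Of the tested tRNA genes, 282 and 230 in hypodermis and 205 and 207 in intestine were below 0 in all 3 replicates, and 36, 43, 51 and 44 were above 0 in all 3.

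The replicates of hypodermis were closer to each other than those of intestine. The tRNA medians in replicates 1, 2 and 3 were −1.34, −1.42 and −1.38 for BAF-1(G12T) and −1.0, −1.60 and −1.40 for BAF-1 in hypodermis. In intestine they were −1.0, −0.47 and −1.29 for BAF-1(G12T) and −0.45, −1.0 and −2.0 for BAF-1. All 12 medians were below 0, with 55.3% to 83.7% of tested tRNA genes under the median gene. Part of this has to be read with the value of a window without reads, which in intestinal BAF-1(G12T) was −1.0 in replicate 1 and −0.47 in replicate 2, the same as the tRNA medians there. Between 1 and 70 tested tRNA genes per column stood at that value, most of them in replicate 1 of intestinal BAF-1. In replicate 2 of intestinal BAF-1 a window without reads had a value as high as 3.0, so a high ratio there can come with few reads. By the read numbers in the paper, the Dam::BAF-1 libraries of intestine in replicates 1 and 2 had the fewest reads at GATC sites of all 24 libraries. The GFP::Dam control of that replicate 2 had the most. The part of the no-read value in the low ratios was not tested. In the 4 columns where a window without reads had a value of 0, the tRNA medians were −1.42 and −1.38 for BAF-1(G12T) in hypodermis, −1.0 for BAF-1 in hypodermis and −0.45 for BAF-1 in intestine. In the same order, 11, 26, 13 and 70 tested tRNA genes stood at that value.

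Position along the chromosome separated tRNA genes in every group. The 5 autosomes of C. elegans have repeat-rich arms that lie near the nuclear envelope and gene-dense centres, and 211 tRNA genes lay in arms, 125 in centres and 276 on the X. The X thus carried 45.1% of tRNA genes, against 13.6% of protein-coding genes. Arm tRNA genes had medians of −0.38 for BAF-1(G12T) and −0.21 for BAF-1 in hypodermis, and −0.43 and −0.80 in intestine. Centre tRNA genes had medians of −1.67, −1.72, −1.26 and −1.49, and X-linked tRNA genes of −1.74, −1.74, −1.35 and −1.28, in the same order. Nearly all tRNA genes called above 0 were in arms, namely 22 of 24, 19 of 20, 18 of 22 and 14 of 16, while centres held 1, 0, 2 and 0 and the X held 1, 1, 2 and 2. Even in arms, however, more tested tRNA genes were below 0 (35.6% and 19% in hypodermis, 14.9% and 20.3% in intestine) than above it (13.5%, 12.9%, 11.7% and 9.15%). Arm protein-coding genes had medians of 1.08, 1.21, 0.76 and 0.53, and 44.7%, 40.6%, 33.8% and 32.3% of them were above 0. In centres the classes came closer, with protein-coding medians of −1.07 and −1.17 in hypodermis and −1.43 and −1.69 in intestine, the intestinal values being below those of tRNA genes.

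**Figure D1:**
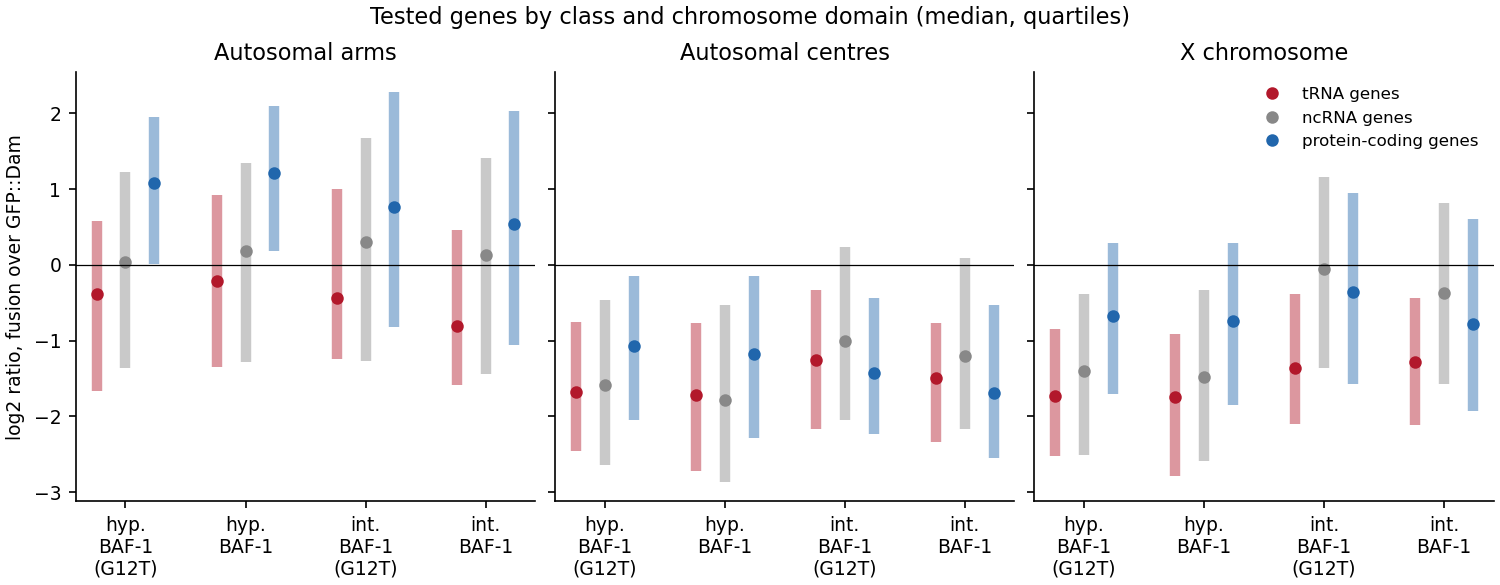
Log2 ratio of Dam fusion over GFP::Dam (y axis, median of all tested genes at 0) for tRNA genes (red), ncRNA genes (grey) and protein-coding genes (blue) in the arms and centres of autosomes and on the X, in the 4 fusion groups. Points are medians over tested genes and bars span the middle 50% of genes; in arms the tRNA medians lie between −0.80 and −0.21 and the protein-coding medians between 0.53 and 1.21.

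By chromosome, tRNA genes of III were lowest among the autosomes in hypodermis, with medians of −1.69 for BAF-1(G12T) and −1.59 for BAF-1, and −1.25 and −1.40 in intestine. Those of IV were highest, at −0.24 and 0.05 in hypodermis and −0.36 and −0.69 in intestine, and 64 of the 71 tRNA genes of IV lie in its arms. The medians of I were −1.06, −0.94, −0.54 and −1.01, those of II −1.45, −1.22, −0.90 and −1.29, and those of V −0.84, −0.57, −0.70 and −0.91. The lowest domain was the centre of II, with medians of −2.43 and −2.39 in hypodermis and −2.0 and −2.52 in intestine. There, 20 of 21 tested tRNA genes for BAF-1(G12T) and 17 of 20 for BAF-1 were called below 0 in hypodermis, 11 of 20 and 14 of 20 in intestine, and none above 0 in any group. Over all centres 62.7%, 55.3%, 34.7% and 40.4% of tested tRNA genes were below 0, and over all genes 26.3%, 24%, 19.2% and 22.4%. Other genes in the centre of II were not counted apart. The centre of III followed at −2.16, −2.08, −1.56 and −1.52.

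Whether tRNA genes merely take the level of their surroundings was examined by subtracting from each the mean ratio of the nearest tested protein-coding gene on each side, at most 20 kb away and with a window that did not overlap. The median difference for BAF-1(G12T) in hypodermis was −0.86, −0.98 and −1.0 in the 3 replicates (−0.94 ± 0.07, SD, n = 3 replicates, over 456 tRNA genes). For BAF-1 in hypodermis it was −0.50, −1.02 and −0.96 (−0.82 ± 0.29, 405 genes). In intestine it was −0.97, −0.25 and −0.85 for BAF-1(G12T) (−0.69 ± 0.38, 442 genes) and −0.46, −0.23 and −1.07 for BAF-1 (−0.59 ± 0.44, 447 genes). All 12 values were below 0, and 75.9% and 74.8% of tRNA genes in hypodermis and 70.6% and 68.5% in intestine had a lower mean ratio than their neighbours. With BAF-1(G12T) in hypodermis, 238 tRNA genes were lower than their neighbours in all 3 replicates and 43 were higher in all 3. The difference was smaller against nearby ncRNA genes, a comparison chosen after seeing the data, at −0.47 ± 0.04 and −0.36 ± 0.07 in hypodermis and −0.47 ± 0.18 and −0.48 ± 0.29 in intestine. No test over these differences was run, and the groups of replicates differ in their control libraries as well as in their fusions.

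The gap to the neighbours was widest in arms for each fusion group. It was −1.13 ± 0.14 for BAF-1(G12T) and −0.89 ± 0.21 for BAF-1 in hypodermis, and −0.98 ± 0.56 and −0.97 ± 0.57 in intestine. In centres it was −0.70 ± 0.16 and −0.62 ± 0.63 in hypodermis and −0.27 ± 0.20 and −0.15 ± 0.37 in intestine, where the values of BAF-1 in both tissues lay within 1 SD of 0, with positive differences of 0.10 in replicate 1 of hypodermal BAF-1 and 0.27 in replicate 2 of intestinal BAF-1. On the X it was −0.92 ± 0.11, −0.83 ± 0.18, −0.73 ± 0.49 and −0.56 ± 0.57, and except for BAF-1(G12T) in hypodermis the arms exceeded this by less than the spread between replicates. Some tRNA genes sat between protein-coding genes that were themselves called above 0, and since those neighbours were picked by their ratios the following is a description. The 34 such tRNA genes with BAF-1(G12T) in hypodermis had a median ratio of 0.41 and lay below their neighbours by −1.44 ± 0.30, and the 28 with BAF-1 had 0.75 and −1.58 ± 0.49. In intestine the 33 with BAF-1(G12T) had 1.11 and −1.71 ± 0.62, and the 37 with BAF-1 had 0.55 and −2.02 ± 0.48.

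**Figure D2:**
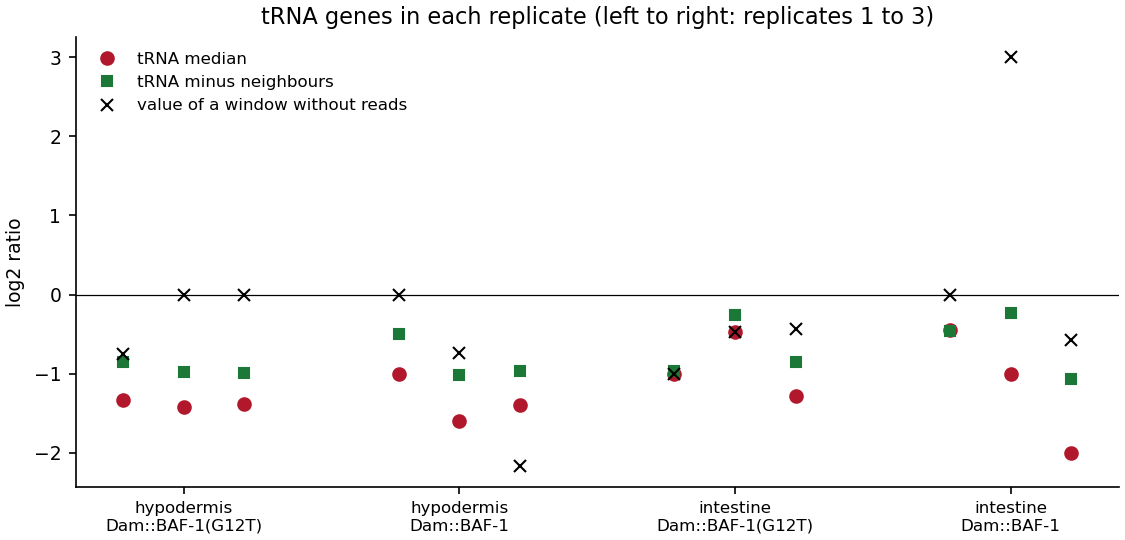
Per replicate (x axis, 3 per fusion group), the median log2 ratio of tested tRNA genes (circles), the median difference between tRNA genes and their protein-coding neighbours (squares) and the value of a window without reads (crosses), in log2 units. Circles and squares are below 0 in all 12 columns, while the crosses lie on both sides of 0.

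The 2 kb bin tables, counted apart from the gene tables, showed a local dip at tRNA genes. In arms, the median ratio of bins holding a tRNA gene was −0.19 ± 0.13 (mean ± SD of the medians of 3 replicates) for BAF-1(G12T) in hypodermis, while bins 6 kb or more away, up to 20 kb, had 0.79 to 1.08 by distance. The other groups had −0.03 ± 0.41 beside 0.85 to 1.32 (BAF-1, hypodermis), −0.06 ± 0.38 beside 0.92 to 1.27 (BAF-1(G12T), intestine) and −0.27 ± 0.30 beside 0.93 to 1.35 (BAF-1, intestine). The dip was narrow: with BAF-1(G12T) in hypodermis the adjacent bins on each side had already returned to 0.47 and 0.33. On the X the tRNA bin had −1.46 ± 0.12 and −1.46 ± 0.26 in hypodermis and −0.83 ± 0.34 and −0.77 ± 0.41 in intestine, also below the range of the distant bins, which was −0.86 to −0.44, −1.10 to −0.62, −0.28 to 0.11 and −0.26 to −0.09. In centres only BAF-1(G12T) in hypodermis had a tRNA bin, at −1.40 ± 0.24, under its distant bins, which had −1.28 to −0.63. The other centre values of −1.37 ± 0.34, −1.19 ± 0.51 and −1.13 ± 0.68 lay within the range of theirs. A bin with a tRNA gene had a median of 5 GATC sites and the flanking bins 4 to 5.

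**Figure D3:**
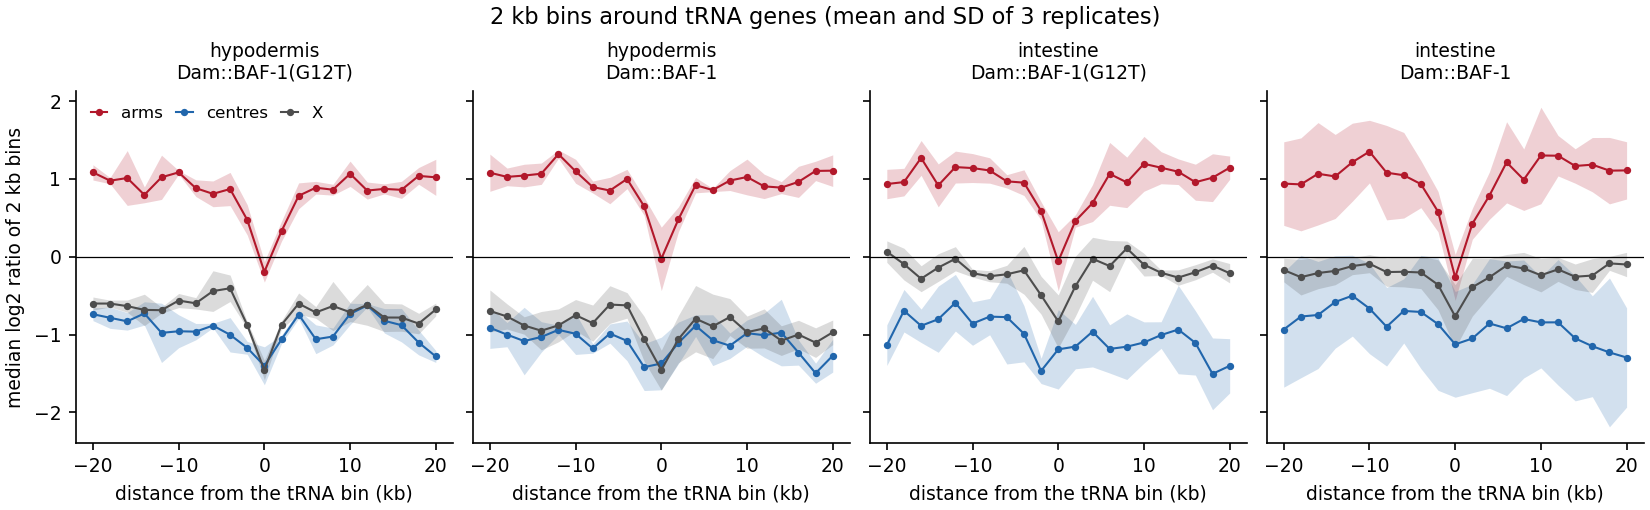
Median log2 ratio of 2 kb bins (y axis) by distance from the bin that holds a tRNA gene (x axis, kb, up to 20 kb on each side) in the 4 fusion groups, for tRNA genes in arms, in centres and on the X. Lines are means of the medians of 3 replicates and shading is 1 SD; the arm line drops at the tRNA bin to between −0.27 and −0.03, with distant bins between 0.79 and 1.35.

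The same dip was measured at other genes, a comparison added after the data were seen. The median of the tRNA bin minus the mean of bins 3 to 5 places away was −0.71 ± 0.04 for BAF-1(G12T) (426 bins) and −0.59 ± 0.22 for BAF-1 (412) in hypodermis, and −0.55 ± 0.28 (418) and −0.64 ± 0.16 (430) in intestine. For bins with an ncRNA gene it was −0.27 ± 0.05, −0.21 ± 0.13, 0.06 ± 0.11 and 0.00 ± 0.05, and for bins with a protein-coding gene 0.11 ± 0.01, 0.13 ± 0.06, 0.06 ± 0.05 and −0.01 ± 0.05. The dip at tRNA genes was therefore deeper than at both other classes in each group, and among domains deepest in arms, at −0.94 ± 0.29, −0.75 ± 0.22, −0.74 ± 0.27 and −1.0 ± 0.30.

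The arm-to-centre contrast was present at tRNA genes but shallower than at protein-coding genes. Mean arm minus mean centre ratio of tRNA genes was 1.34, 1.20 and 0.82 for BAF-1(G12T) (1.12 ± 0.26) and 1.59, 1.59 and 1.35 for BAF-1 (1.51 ± 0.14) in hypodermis. In intestine it was 0.93, 1.02 and 1.13 (1.03 ± 0.10) and 0.53, 1.02 and 1.06 (0.87 ± 0.30). Protein-coding genes had 1.97 ± 0.23, 2.22 ± 0.17, 1.94 ± 0.32 and 1.89 ± 0.67 and exceeded tRNA genes in each of the 12 columns. The protein-coding neighbours of the tRNA genes themselves had 1.65 ± 0.25, 1.94 ± 0.36, 1.91 ± 0.27 and 1.70 ± 0.61, and ncRNA genes 1.43 ± 0.19, 1.66 ± 0.21, 1.04 ± 0.20 and 1.04 ± 0.41, the last 2 of which were near the tRNA values.

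Crowded tRNA genes had lower ratios than isolated ones. Those in regions of 3 or more overlapping windows had medians of −2.48 for BAF-1(G12T) and −2.39 for BAF-1 in hypodermis, and −1.72 and −1.89 in intestine. Of these, 56 of 63, 46 of 61, 31 of 61 and 35 of 60 were called below 0 and none above it. Among all tested tRNA genes 53.8%, 43.3%, 27.5% and 31.5% were below 0, and among all genes 26.3%, 24%, 19.2% and 22.4%. Genes of such a region share reads, so their calls are not separate measurements. The part of position in arms, centres or on the X in this contrast was not tested. Pairs had medians of −1.45, −1.09, −1.20 and −1.44, and tRNA genes alone in their region −1.12, −1.06, −0.75 and −0.91, with 24, 18, 16 and 16 called above 0. The number of GATC sites in the window ran partly along with this: windows with 1 or 2 sites had medians of −1.05, −1.11, −0.77 and −1.0, those with 3 or 4 sites −1.61, −1.40, −0.99 and −1.27, and those with 5 or more −1.56, −1.35, −1.55 and −1.49. The part of the site number in the cluster values was not tested. The 290 tRNA genes that lie inside a protein-coding gene, 167 of them on its strand and 123 on the opposite strand only, had medians of −1.53, −1.40, −0.99 and −1.34, and those outside −1.07, −1.11, −1.10 and −1.07.

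RefSeq names the amino acid of 607 members. The tRNA-Cys genes were low in each group, with 12 of 12 tested genes called below 0 for BAF-1(G12T) and 9 of 12 for BAF-1 in hypodermis, 7 of 12 and 6 of 13 in intestine, and none above 0 (medians −2.36, −2.14, −1.77 and −1.60). Of these 13 genes 12 are identical copies in 9 regions, with 4 in arms, 1 in a centre and 7 on the X. Tested arm copies had medians of −1.54, −0.97, −0.09 and −1.03, and X copies −3.06, −2.49, −1.87 and −2.28. The part of position in these low ratios was not tested. Of tRNA-Glu genes 30, 26, 28 and 30 were tested and none was called above 0, with 12, 10, 8 and 8 below (40%, 38.5%, 28.6% and 26.7%). Among all tested tRNA genes 5.25%, 4.89%, 4.97% and 3.58% were above 0 and 53.8%, 43.3%, 27.5% and 31.5% below. The tRNA-Pro genes, with 30, 28, 31 and 33 tested, had none above 0 either. The tRNA-His genes had medians nearer 0 at −0.07, −0.38, −0.21 and −0.91, over 12, 9, 7 and 10 tested genes. In the largest set, copies of 1 sequence spread by where they lie. Of the 29 identical tRNA-Gly copies, 10 lie in arms, 8 in centres and 11 on the X, and 18, 17, 19 and 18 were tested. The tested copies had arm medians of 0.19 and −0.04 in hypodermis and 1.04 and 0.46 in intestine. Their centre medians were −2.17, −2.70, −2.59 and −1.34, and their X medians −2.24, −2.84, −2.02 and −2.35. The 24 copies of the tRNA-Pro gene printed as ZK899.t1 showed no such order with BAF-1(G12T) in hypodermis, where 18 were tested. Medians of tested copies there were −1.12 in arms, −1.38 in centres and −0.36 on the X, and single copies had −4.40 to 0.11. A set of 25 tRNA-Lys copies, of which 18 were tested in each group, had nearly equal medians there, at −1.61 in arms, −1.58 in centres and −1.77 on the X. In its other groups arms were highest, at −0.80, −1.16 and −1.40, beside −1.07, −2.42 and −2.32 in centres.

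Across fusion groups, 43 tRNA genes, in 41 regions, were called above 0 in at least 1 group, and 7 were above 0 in all 4: W05B2.t1, ZK39.t1, C09B9.t1, ZC132.t1, Y75D11A.t2, T05C7.t1 (tRNA-Met) and K09C6.t1 (tRNA-Ala), the last pair outside the naming rule. Of these, 6 lie in autosomal arms and Y75D11A.t2 on the X. Counts of genes called in at least 1 group, in all 4, or in opposite directions in different groups were not made over all genes, here or in what follows. W05B2.t1 had 5.28, 5.38 and 2.94 with BAF-1(G12T) and 4.43, 5.64 and 2.49 with BAF-1 in hypodermis, and 4.10, 3.29 and 3.24 with BAF-1(G12T) and 2.81, 2.06 and 3.02 with BAF-1 in intestine. All 12 values were far above 0, with means of 4.53 ± 1.38, 4.18 ± 1.59, 3.55 ± 0.48 and 2.63 ± 0.51 (SD, n = 3) and limma adjusted p-values of 0.000829, 0.0013, 0.00467 and 0.00784. This tRNA-Arg gene lies on the minus strand within the gene W05B2.2, its window has 5 GATC sites, and its nearest protein-coding genes averaged less, at 0.87, 1.31, 2.08 and 1.94. Without replicate 2 of intestinal BAF-1 its adjusted p in that group was 0.0904. The calls of the other 4 genes described here in intestinal BAF-1 were lost without that replicate too, with adjusted p-values of 0.122 for ZK39.t1, 0.104 for C09B9.t1, 0.0882 for ZC132.t1 and 0.173 for Y75D11A.t2.

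Y75D11A.t2 had 4.05, 1.19 and 3.03 with BAF-1(G12T) and 4.92, 1.95 and 2.06 with BAF-1 in hypodermis, and 2.43, 1.97 and 2.77 with BAF-1(G12T) and 1.81, 2.15 and 2.07 with BAF-1 in intestine. It was above 0 in all 12 columns and the median of the replicate means of X-linked tRNA genes was −1.28 or lower in each group, and its neighbours Y75D11A.3 and elc-2, an elongin C homologue, averaged 1.49, 2.12, 2.70 and 1.93 (adjusted p 0.00329, 0.0042, 0.0126 and 0.0183 by limma). In intestine its adjusted p was 0.0813 without replicate 3 of BAF-1(G12T) and 0.0984 without replicate 3 of BAF-1. ZK39.t1 (tRNA-Gly, chrI:11158627-11158697, plus strand, opposite to its host clec-99, a C-type lectin gene) averaged 3.47 ± 0.62 and 3.33 ± 0.95 in hypodermis and 3.10 ± 0.56 and 1.87 ± 0.80 in intestine. C09B9.t1 (tRNA-Lys, chrIV:5038920-5038992, plus strand) averaged 1.21 ± 0.52 and 2.72 ± 1.72 in hypodermis and 3.35 ± 0.18 and 2.36 ± 0.44 in intestine, with neighbours at 2.19, 2.64, 4.10 and 3.24, below which it lay in all groups but hypodermal BAF-1. ZC132.t1 (tRNA-Gly, chrV:4310610-4310680, plus strand) had 1.57, 0.58 and 1.42 with BAF-1(G12T), against 4.52, 2.31 and 2.08 with BAF-1 in hypodermis. The 2 groups of ZC132.t1 did not overlap there, but no difference between the proteins was called, and in intestine it averaged 3.07 ± 0.66 and 3.54 ± 1.22. Its adjusted p of 0.0493 for BAF-1(G12T) in hypodermis, like the 0.0466 of C09B9.t1, was close to the threshold and was lost without any of the 3 replicates (0.0849 to 0.204 for ZC132.t1 and 0.0865 to 0.168 for C09B9.t1). Without replicate 3 the calls of C09B9.t1 with BAF-1 in hypodermis (adjusted p 0.0736) and intestine (0.0784) and of ZK39.t1 with BAF-1 in intestine (0.167) were lost as well.

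**Figure D4:**
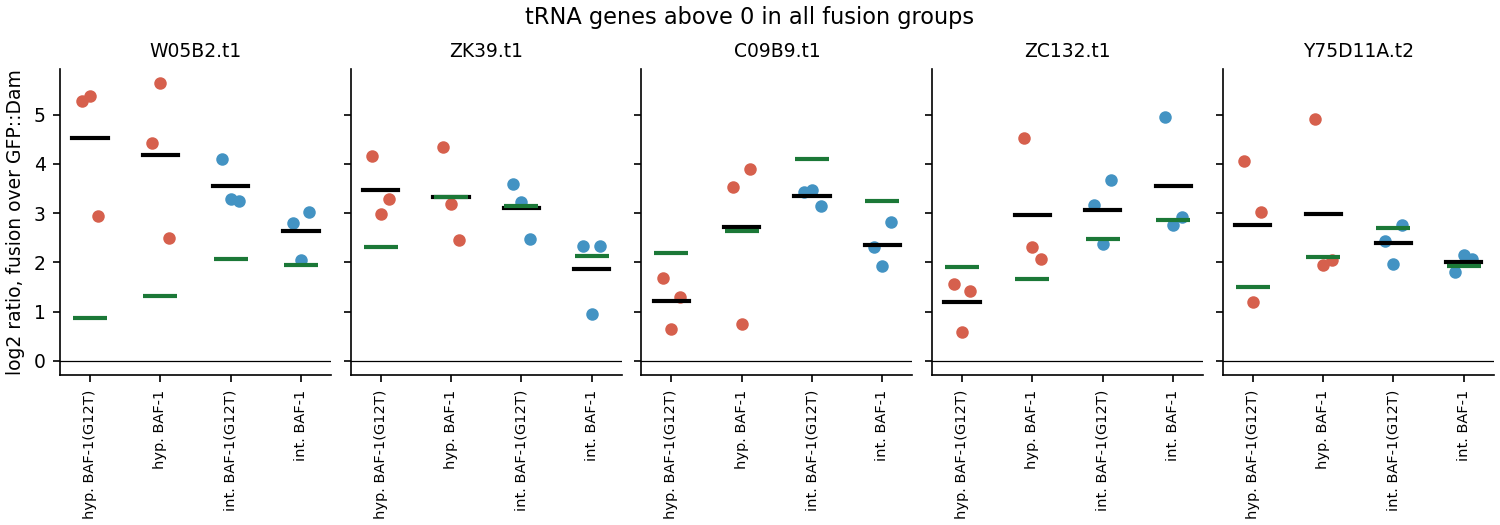
Log2 ratio of Dam fusion over GFP::Dam (y axis) in each replicate (points) of the 4 fusion groups for 5 tRNA genes called above 0 in all 4, with the mean of 3 replicates (black line) and the mean of the nearest protein-coding genes (green bar). All points lie above 0, and W05B2.t1 is the gene whose mean lies above that of its neighbours in each of the 4 groups.

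A few further genes were among the highest in some groups only. Y46G5A.t1, on the strand of its host snrp-200, which encodes a spliceosomal helicase, had 1.91, 0.38 and 1.52 with BAF-1(G12T), against 4.30, 3.22 and 4.22 with BAF-1 in hypodermis. F45G2.t1 (tRNA-Thr, chrIII:13411366-13411437, minus strand, opposite to the myosin gene myo-6) had 3.09, 1.97 and 1.72 with BAF-1(G12T), against 4.88, 3.79 and 2.58 with BAF-1 in hypodermis, and averaged 1.05 and 1.79 in intestine. Y17G9A.t1 (tRNA-His, chrIV:4861754-4861827, plus strand) had 1.0, 4.32 and 2.24 with BAF-1 in intestine and a single GATC site, and it was not tested for BAF-1 in hypodermis or BAF-1(G12T) in intestine. The intestinal replicates of Y17G9A.t1 thus spanned more than 3 log2 units, and without replicate 2 its adjusted p was 0.244.

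At the other end, 297 tRNA genes in 228 regions were called below 0 in at least 1 fusion group and 54, in 42 regions, in all 4. ZK899.t1 had −6.31, −3.60 and −3.29 with BAF-1(G12T) and −4.81, −3.61 and −3.63 with BAF-1 in hypodermis, and −0.81, −1.96 and −2.08 with BAF-1(G12T) and −1.22, −3.80 and −2.31 with BAF-1 in intestine. All 12 values were below 0, and the means of −4.40 ± 1.66, −4.01 ± 0.69, −1.62 ± 0.70 and −2.44 ± 1.30 passed the limma test in all groups but intestinal BAF-1(G12T) (adjusted p 0.000872, 0.00129, 0.057 and 0.014). Its neighbours ZK899.6 and gap-2, a Ras GTPase-activating protein gene, averaged −1.61, −1.40, 0.07 and −0.38. ZK970.t3 differs from it by G50T, counted from 1 at the 5′ end of the gene with the base of ZK899.t1 first, and lies on the strand of its host gcy-4, a receptor guanylyl cyclase gene. ZK970.t3 had −2.07, −3.46 and −1.74 with BAF-1(G12T) and −2.17, −2.06 and −1.17 with BAF-1 in hypodermis, and −0.26, −0.91 and −0.44 with BAF-1(G12T), against −3.46, −2.98 and −3.68 with BAF-1 in intestine.

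F22F1.t7 (tRNA-Ile, chrX:8156634-8156707, minus strand) had −4.96, −3.95 and −4.25 with BAF-1(G12T) and −3.46, −2.45 and −3.55 with BAF-1 in hypodermis, with means of −2.10 and −0.89 in intestine. C30E1.t1 (tRNA-Gly, chrX:16928271-16928341, minus strand) was the lowest with BAF-1 in hypodermis, at −3.32, −5.87 and −4.34. In intestine the lowest with BAF-1(G12T) were C28A5.t3 (tRNA-Ala, chrIII:4428953-4429024, minus strand) at −5.58, −4.05 and −3.61 and C12C8.t1 (tRNA-Gly, chrI:9320178-9320249, plus strand, within uggt-2) at −2.0, −4.05 and −4.61. All 4 genes are on the X or in centres. C14B9.t1 (tRNA-Met, chrIII:8106653-8106725, plus strand), next to the Polo-like kinase gene plk-1, was among the 2 lowest with BAF-1 in intestine and low in each group, with means of −3.73, −3.61, −2.78 and −3.35 ± 0.39, and its neighbours were also low at −3.0, −2.55, −2.10 and −1.82. Without replicate 2 of intestinal BAF-1 the adjusted p of both C14B9.t1 and ZK970.t3 in that group was 0.0882.

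BAF-1(G12T) and BAF-1 shared part of their calls within a tissue. In hypodermis 13 tRNA genes were above 0 with both proteins, which is 54.2% of those of BAF-1(G12T) and 65% of those of BAF-1, and 166 were below with both (67.5% and 93.8%). In intestine 11 were above with both (50% and 68.8%) and 76 below with both (62.3% and 53.9%). Over all genes the shared calls were 62.1% and 82.7% above and 74.5% and 90.6% below 0 in hypodermis, and 78.8% and 60.3% above and 77.4% and 59.9% below in intestine, in the same order of proteins. When the proteins were compared directly, without a replicate block, limma called 0 of 409 tRNA genes in hypodermis, with 5 higher and 6 lower with BAF-1(G12T) at an unadjusted p under 0.05, and 0 of 421 in intestine, with 5 higher and 9 lower. No gene of any kind was called either (0% of 30279 and 0% of 32982). The replicate number paired the libraries of the 2 proteins within a tissue, and with it as a block the counts were also 0, with 12 higher and 9 lower in hypodermis and 8 higher and 13 lower in intestine at an unadjusted p under 0.05. In simulated tables with 200 genes changed, the fits without the block recovered 6% in hypodermis and 2% in intestine of those changed by 2 log2 units, and 79% and 43% of those changed by 4. With 6054 and 6596 genes changed they recovered 40.5% and 24.0% of those changed by 2, so changes of that size could be missed. The median difference was −0.16 in hypodermis (0.00 over all genes) and −0.03 in intestine (0.05).

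The genes with the smallest p in each direction did not pass the adjustment. Differences were estimated after both groups had been set to 0 at the median of the genes tested in both, so they can be slightly off the difference between the means printed for each group. Y46G5A.t1 differed by −2.54 (SE 0.67, adjusted p = 0.9998 by limma) in hypodermis. F22F1.t1 (tRNA-Asp, chrX:8149156-8149227, plus strand) differed in hypodermis by 2.20 (SE 0.70, limma adjusted p = 1.00), with −0.75, −0.85 and −0.58 with BAF-1(G12T), against −1.58, −3.74 and −3.17 with BAF-1. In intestine ZK970.t3 differed by 2.62 (SE 0.73, limma adjusted p = 1.00), and C27A2.t1 (tRNA-Ile, chrII:5057447-5057520, minus strand) by −2.76 (SE 0.79, limma adjusted p = 1.00), with −2.58, −3.79 and −2.76 with BAF-1(G12T), against 0.58, −0.66 and −1.42 with BAF-1. These genes are listed by their rank and not as differences that were called. The tissue by protein interaction called 0 of 378 tRNA genes by limma (0% of all 29716 genes), with 7 positive and 6 negative at an unadjusted p under 0.05.

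Hypodermis and intestine differed at a few tRNA genes, more often with the lower ratio in hypodermis. With BAF-1(G12T), 1 of 425 tRNA genes was higher and 12 were lower in hypodermis than in intestine, in 11 regions, whereas 2.29% of all 32033 genes were higher and 5.03% lower. With BAF-1, 3 of 385 were higher and 10 lower, in 13 regions, beside 2.62% and 5.56% of all 30152 genes. For both proteins and in both directions, tRNA genes were thus called less often than all genes, on few calls. The median tRNA difference was −0.43 with BAF-1(G12T) and −0.48 with BAF-1, and that of all genes −0.13 and −0.22. With the centring of the deposited tables the BAF-1 medians were 0.35 for tRNA genes and 0.61 for all genes, and 15 tRNA genes were higher and 5 lower, so the direction of the BAF-1 comparison depends on the centring. With BAF-1(G12T) no tRNA gene was called without replicate 1 or replicate 2 of hypodermis, with 55 and 51 at an unadjusted p under 0.05, and 5 were called without its replicate 3. With BAF-1 none was called without replicate 3 of intestine, with 66 at an unadjusted p under 0.05, 1 without replicate 2 of hypodermis and 2 without replicate 2 of intestine. Calls over all genes fell too. With BAF-1(G12T) there were 0 without replicate 1 of hypodermis, and 28 higher and 239 lower without its replicate 2. With BAF-1 there were 0 without replicate 3 of intestine, and 51 higher and 387 lower without replicate 2 of hypodermis. Without replicate 2 of intestine 69 were higher and 413 lower.

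In both tissue comparisons 3 genes were called, 23.1% of the 13 of each: F47E1.t3, K08B5.t2 and Y18H1A.t1. The matching share over all genes was not counted. F47E1.t3 (chrX:9059280-9059394, minus strand, without a RefSeq product and opposite to its host F47E1.2) had −2.39, −1.62 and −1.43 in hypodermis, against 1.79, 2.22 and 2.10 in intestine, with BAF-1(G12T). With BAF-1 it had −2.43, −2.78 and −2.17 in hypodermis, against 1.22, 0.00 and 1.23 in intestine. The differences of F47E1.t3 were −3.88 (SE 0.70, adjusted p = 0.00924) and −3.64 (SE 0.75, adjusted p = 0.0130) by limma. Its neighbours prdm-14 and F47E1.4 differed likewise, with −2.06 and −2.05 in hypodermis and 2.55 and 1.81 in intestine for BAF-1(G12T) and BAF-1. K08B5.t2 (tRNA-Glu, chrX:16558942-16559013, plus strand), which was named after its values had been seen, had −4.12, −4.15 and −3.10 in hypodermis, against −0.26, −1.17 and 0.37 in intestine, with BAF-1(G12T), and −3.27, −4.04 and −2.62 against −1.0, 0.42 and −0.77 with BAF-1. Its differences were −3.47 (SE 0.74, adjusted p = 0.0175) and −3.22 (SE 0.80, adjusted p = 0.0247), while its neighbours averaged −0.87 and −0.57 in hypodermis and −0.07 and −1.10 in intestine. These calls were lost without some single libraries, where fewer genes of any kind were called as well. With BAF-1(G12T), adjusted p was 0.0600 for F47E1.t3 and 0.0856 for K08B5.t2 without replicate 1 of hypodermis, and 0.0515 and 0.0903 without its replicate 2. It was 0.0544 for K08B5.t2 without replicate 3 of intestine. With BAF-1 it was 0.0564 and 0.104 without replicate 2 of hypodermis, 0.0893 and 0.106 without replicate 3 of intestine, and 0.124 for K08B5.t2 without replicate 2 of intestine.

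Y18H1A.t1 (tRNA-Leu, chrI:754680-754763, plus strand), also named after its values had been seen, had −2.28, −0.99 and −0.65 in hypodermis, against 3.91, 1.43 and 2.0 in intestine, with BAF-1(G12T). With BAF-1 it had −1.19, 0.19 and −0.71 in hypodermis, against 3.53, 0.34 and 1.88 in intestine. The nearest BAF-1 values of its 2 tissues were 0.19 and 0.34. Its differences were −3.79 (SE 0.83, adjusted p = 0.0197) and −2.85 (SE 0.84, adjusted p = 0.0465) by limma. Its neighbours, the collagen gene col-47 and Y18H1A.8, were at 0.01 and 0.04 in hypodermis and 2.99 and 2.59 in intestine. Its BAF-1 call was lost without any 1 of the 6 replicates (adjusted p 0.0628 to 0.159), and its BAF-1(G12T) call without replicate 1 (0.103) or 2 (0.0739) of hypodermis or replicate 1 of intestine (0.0528). F22F1.t2 had −3.81, −4.44 and −4.75 in hypodermis, against 1.0, 3.32 and −0.35 in intestine, with BAF-1, the largest tissue difference of any tRNA gene (−6.02, SE 0.91, adjusted p = 0.00459 by limma). With BAF-1(G12T) it had −3.75, −3.42 and −3.81 in hypodermis and −1.0, −1.47 and −2.02 in intestine, where it was not tested. The sign in intestine thus rested on BAF-1 replicates 1 and 2, of which replicate 2 at 3.32 was close to the 3.0 of a window without reads, and without replicate 3 the difference was −6.74 with an adjusted p of 0.0570.

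The genes higher in hypodermis were fewer. C28A5.t3 was higher with BAF-1(G12T), at −0.13, −2.17 and −1.42 in hypodermis, against −5.58, −4.05 and −3.61 in intestine (3.14, SE 0.82, adjusted p = 0.0375 by limma). Both of its groups were below 0. Y54G2A.t3 (tRNA-Asp, chrIV:2805627-2805698, plus strand) was higher with BAF-1, at 1.76, 1.04 and 1.96 in hypodermis, against −2.17, −0.82 and −2.42 in intestine (3.03, SE 0.79, adjusted p = 0.0293), with neighbours at −0.29 and −0.45. The call of C28A5.t3 was lost without replicate 1, 2 or 3 of hypodermis or replicate 1 of intestine (adjusted p 0.0801 to 0.16), and that of Y54G2A.t3 without replicate 1, 2 or 3 of hypodermis or replicate 2 or 3 of intestine (0.0533 to 0.128). The other genes higher with BAF-1, W09D6.t2 (tRNA-Pro, chrIII:11066848-11066919, within rsa-2; 3.42, SE 0.89, adjusted p = 0.030) and Y46G5A.t1 (2.71, SE 0.80, adjusted p = 0.0455), were named because the count was small. In all, 4 tRNA genes were called above 0 in one group and below 0 in another, namely Y18H1A.t1, Y54G2A.t3, F47E1.t3 and R09E10.t1 (tRNA-Gln, chrIV:10311231-10311302, within acs-18), which was named after its values had been seen and averaged 1.41 with BAF-1(G12T) in hypodermis (adjusted p = 0.039) and −2.25 with BAF-1 in intestine (adjusted p = 0.034).

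**Figure D5:**
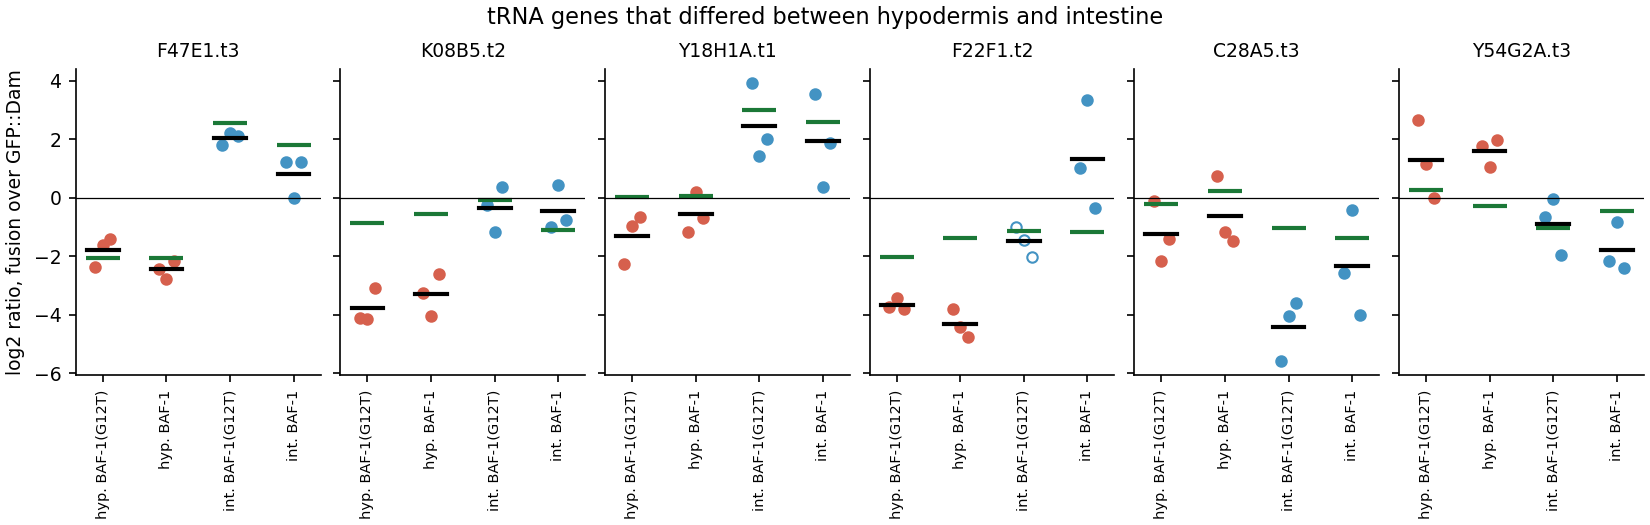
Log2 ratio (y axis) per replicate in hypodermis (red) and intestine (blue) for 6 tRNA genes with a called tissue difference, with BAF-1(G12T) and BAF-1; open circles mark groups that were not tested, black lines the mean of 3 replicates and green bars the mean of the nearest protein-coding genes. For F47E1.t3 and Y18H1A.t1 the green bars follow the tissues, and for F22F1.t2 and K08B5.t2 they differ between tissues by less than 1 log2 unit.

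Genes that serve tRNAs were set beside them as lists, described by counts. Of 21 aminoacyl-tRNA synthetase genes, which encode the enzymes that load tRNAs, 20 were matched and tested, 16 of them in centres and 4 in arms. None was called above 0, and 10, 10, 7 and 14 (50%, 50%, 35% and 70%) were called below, with medians of −1.28 for BAF-1(G12T) and −1.45 for BAF-1 in hypodermis and −1.70 and −2.79 in intestine. The 11 genes for RNA polymerase III, its factors and tRNA export had 0 above and 6, 5, 6 and 6 below 0, with medians of −1.41, −1.37, −1.96 and −1.75, and 8 of them lie in centres. Of all protein-coding genes in centres 45.4%, 41.1%, 37.1% and 48% were below 0 and 3.47%, 2.56%, 3.45% and 3.23% above, beside 54.5%, 45.5%, 54.5% and 54.5% of the polymerase III list. The 5S rRNA genes are also transcribed by RNA polymerase III, and of 16 listed genes only 6, 4, 5 and 7 were tested, with 2, 2, 1 and 1 above 0 and 1, 0, 0 and 0 below, too few to set against tRNA genes or against the 24.6%, 20.5%, 21.9% and 25.9% of all genes above 0. The tissues were checked with markers, which here carry DamID ratios and not RNA levels. Of 7 hypodermis markers, 6 and 5 were below 0 in hypodermis and 2 and 3 in intestine, where 2 and 2 were above, and of 6 intestine markers 1 and 2 were below 0 in hypodermis and 4 and 4 in intestine.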

How the data were processed

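Members, gene lists and alternatives were chosen with earlier results of these data known. The authors kept adapter-bearing reads at GATC sites of ce11 (WBcel235 in Ensembl), tallied them per 2 kb bin and per gene with 500 bp on both sides, and deposited per replicate the log2 of the ratio of relative fusion to relative GFP::Dam reads (pseudocount 1, mean subtracted). The aligner, not given in the sources used here, and the treatment of multiply mapping reads could bear on identical copies. The authors also deposited an adjusted p-value from DESeq2 (no version stated), of which only its presence was used. The design allowed for read counts; log2 ratios were found, and limma was used.

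Genes were mapped to biotypes of Ensembl release 115. Columns were centred on the median of tested genes. limma 3.58.1 (R 4.3.3, robust empirical Bayes) tested 3 ratios against 0, or 3 against 3, with Benjamini-Hochberg adjustment over all tested genes at 0.05. P-values measure the spread between replicates only. On simulated tables with 6760, 6074, 6672 and 7370 genes changed by 2 or 4 log2 units in equal numbers, 90.4%, 75.9%, 61.9% and 51.2% of those changed by 2 were recovered (BAF-1(G12T) and BAF-1 in hypodermis, then in intestine), and with 200 genes changed 66%, 29%, 17% and 13%. Arms and centres followed the borders of the study; X was taken whole. Summaries used Python 3.11.15, pandas 2.3.3, numpy 2.4.6 and matplotlib 3.10.9.

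Same-numbered libraries of the 2 proteins deviated together (r = 0.45, 0.32 and 0.28 in hypodermis, 0.30, 0.24 and 0.43 in intestine, across genes, which are not independent). They were taken as pairs only in the alternative fits with a replicate block. The differences, SEs and adjusted p-values printed for single genes come from fits without it. Named genes were, per group, the 3 called above 0 with the highest mean and the 2 with the lowest, in the same direction in all replicates; the smallest p in each direction per difference; and up to 5 called in all groups, skipping overlapping windows. Other names are marked as chosen after seeing the values. Alternatives were the deposited centring, no filter, removal of genes at the value of a window without reads, ordinary empirical Bayes, a replicate block, other neighbours and leaving out each replicate.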

Additional observations from a re-analysis of the deposited data

Results flagged for a closer look

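The following tRNA genes differed between hypodermis and intestine by limma's test of the difference itself, given as hypodermis minus intestine on the log2 scale. With BAF-1(G12T), F47E1.t3 differed by −3.88, Y18H1A.t1 by −3.79 and K08B5.t2 by −3.47, all lower in hypodermis, and C28A5.t3 by 3.14, higher in hypodermis. With BAF-1, F22F1.t2 differed by −6.02, F47E1.t3 by −3.64, K08B5.t2 by −3.22 and Y18H1A.t1 by −2.85, all lower in hypodermis, and Y54G2A.t3 by 3.03, higher in hypodermis. The number of GATC sites in these windows was 11 for Y18H1A.t1, 4 for F22F1.t2, 3 for F47E1.t3 and Y54G2A.t3, and 2 for K08B5.t2 and C28A5.t3.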

How the results depend on the processing

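Counts of tRNA genes above and below 0 moved most. Without a filter on tested genes, BAF-1(G12T) in hypodermis had 0 above (19 at an unadjusted p under 0.05, limma) and 9 below (183 unadjusted), BAF-1 in hypodermis 35 above, BAF-1(G12T) in intestine 27 below and BAF-1 in intestine 5 above. With the deposited centring BAF-1 in intestine had 10 above. Leaving out each replicate gave 15 to 22 above and 188 to 248 below for BAF-1(G12T) and 16 to 18 above and 114 to 195 below for BAF-1 in hypodermis, and 14 to 18 above and 49 to 130 below for BAF-1(G12T) and 0 to 21 above and 0 to 249 below for BAF-1 in intestine. Tissue calls with BAF-1(G12T) were 1 without a filter, 4 with a replicate block and 0 to 14 without a replicate, and with BAF-1 20 with the deposited centring, 14 with the block and 0 to 17 without a replicate. Same-numbered libraries of the tissues did not deviate together (r from −0.10 to 0.08), so there the number is only a name. The block left both protein differences and the interaction at 0.

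The difference to neighbours for BAF-1(G12T) in hypodermis was −0.48 with overlapping neighbours allowed, −0.74 over all genes, −0.47 against ncRNA genes, −0.71 in 2 kb bins and −0.99 to −0.92 without a replicate, and for BAF-1 −0.49 with overlap and −0.36 against ncRNA genes. In tRNA windows with 3 or more GATC sites, chosen after seeing the data, it was −0.93 and −0.69 in hypodermis and −0.68 and −0.60 in intestine. Arm minus centre was 1.23 over all genes and 1.36 by medians for BAF-1 in hypodermis, and 0.88 over all genes for BAF-1(G12T) in intestine. None reversed. Of 420 values of named genes, 347 kept their call, 73 lost it and 0 reversed. The causes were not tested. Few GATC sites per window, ratios without depth and shared windows limit single-gene values.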
